A study of Homo sapiens with 6 samples.

Results

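The 10 genes described here encode subunits of the AMP-activated protein kinase (AMPK) and the kinases that switch it on. They were taken by name: the catalytic alpha subunits PRKAA1 and PRKAA2, the scaffold beta subunits PRKAB1 and PRKAB2, the nucleotide-binding gamma subunits PRKAG1 and PRKAG2, the kinase STK11 (LKB1) with its partners STRADA and CAB39, and the calcium-dependent kinase CAMKK2. All 10 were found among the 60604 genes used. RNA was sequenced from the established human line MIA PaCa-2, which derives from a pancreatic carcinoma and has the genotype label WT. There were 3 libraries of cells treated with black phosphorus (BP) at 12.5 µg/ml, and 3 of cells given the same dose of BP plus 10 mg/ml Huaier, a medicinal fungus preparation. Both groups thus carried BP, and cells without BP or with Huaier alone were not analysed here. No treatment time is given. No label ties the libraries to separate cultures, so p-values here cover only the spread among these libraries, which may be technical.

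AMPK is a trimer of an alpha, a beta and a gamma subunit that senses a fall in cellular energy. AMP and ADP bind the gamma subunit, and an upstream kinase phosphorylates the activation loop of alpha. LKB1 does this as a complex with the pseudokinase STRADA and the scaffold CAB39 (MO25), whereas CAMKK2 responds to calcium and calmodulin. Active AMPK restrains lipid and protein synthesis and promotes autophagy through ULK1. Its activity depends on phosphorylation and nucleotides, which RNA sequencing does not measure, so the values below describe transcripts only.

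Total counts on genes lay between 15657593 and 17036565 per library. On the first principal component, BP+Huaier 3 lay at 11.5, apart from BP+Huaier 1 and 2 at 65.1 and 66.0 and from the BP libraries at -50.6 to -43.4. The keratins KRT8, KRT18 and KRT19 and vimentin (VIM) were abundant in every library. KRT18 was at 436 to 464 CPM (counts relative to library size) with BP and 483 to 938 with BP+Huaier, and KRT19 at 212 to 234 and 276 to 615, both higher without overlap. KRT8 overlapped, at 882 to 1020 CPM with BP and 769 to 1670 with BP+Huaier. The epithelial marker EPCAM was at 0 in 4 of 6. Summed, these 4 markers overlapped as well, at 1550 to 1720 CPM with BP and 1530 to 3220 with BP+Huaier. DCN, LUM, PTPRC, CD3E, HBB, PRSS1, INS and GCG, defining markers of fibroblasts, leukocytes, red cells, acinar cells and islets, had 0 counts in all 6. Other markers of these types had counts. CD68, LYZ, HBA1, HBA2 and CPA1 reached at most 0.517 CPM in any library. The endothelial cadherin CDH5 was at 17.3 to 21.1 CPM with BP and 11.7 to 14.7 CPM with BP+Huaier, lower without overlap, with PECAM1 at 0 in 4 libraries. The 5 fibroblast markers, 2 of them at 0 throughout, summed to 8.13 to 8.92 CPM with BP and 12.7 to 14.4 CPM with BP+Huaier. Of these, COL1A1 was at 1.22 to 1.42 CPM with BP and 5.19 to 6.43 with BP+Huaier. PDGFRB was at 0 to 0.373 and 0.419 to 0.96 CPM, and both genes were higher without overlap. COL3A1 overlapped, at 6.76 to 7.32 CPM with BP and 6.58 to 7.55 with BP+Huaier. The part of all these markers in the results was not tested. CPM values here are scaled by TMM, a factor per library that sets the bulk of genes level. In bulk RNA, fewer cells of a type and less RNA per cell cannot be told apart.

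STK11 rose when Huaier was added, and no member passed the test as lower. Of the 9 members with enough counts to be tested, 1 was higher and 0 were lower (a call here means an adjusted p under 0.05 from edgeR, with Benjamini-Hochberg adjustment over all 15022 tested genes). Over all tested genes 29.3% passed, 14.4% higher and 15.0% lower, beside 11.1% of the members. Among protein-coding genes 16.6% were higher and 12.8% lower. At an unadjusted p under 0.05 edgeR gave 2 higher and 0 lower members, DESeq2 the same and limma-voom 2 higher and 1 lower. After adjustment all of these tools gave 1 higher and 0 lower, where DESeq2 called 18.4% of all genes higher and 16.2% lower and limma-voom 14.3% and 17.0%. Scaling by library size alone also gave 1 and 0, where 7.00% of all genes were higher and 19.7% lower. The median log2 fold change of the 9 was -0.07, beside -0.02 for all genes. The groups did not overlap for STK11 and PRKAB1, both higher, where 46.8% of all genes had no overlap, 21.9% higher and 24.9% lower. Without BP+Huaier 3, 2 of the same 9 were higher (STK11 and PRKAB1) and 3 lower (PRKAA1, PRKAA2 and STRADA), while 28.8% of all genes were higher and 31.0% lower.

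**Figure D1:**
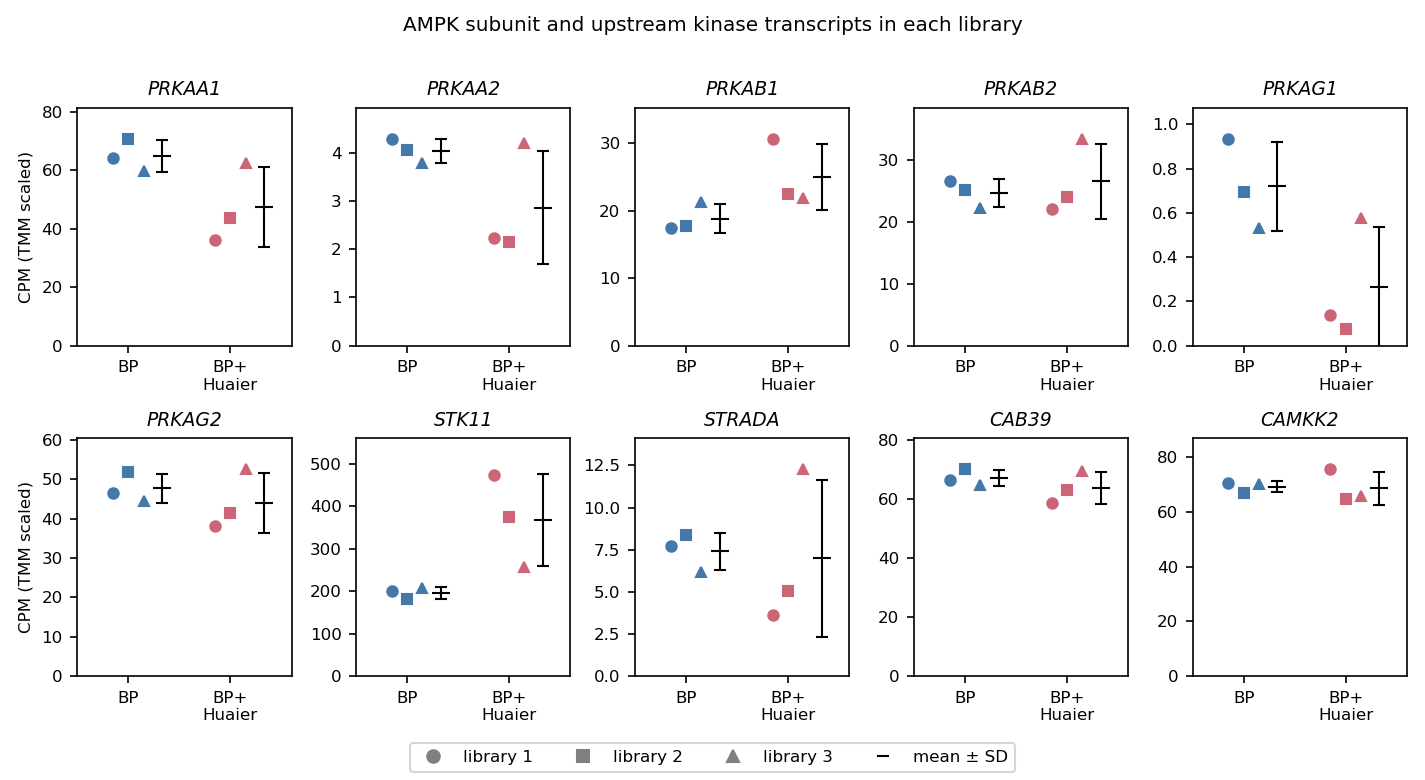
Each panel plots 1 gene in TMM-scaled CPM on a linear axis from 0, with a symbol for each of the 3 BP and 3 BP+Huaier libraries and the mean ± SD beside them (the lower bar of PRKAG1 runs past 0). The 3 BP+Huaier values of STK11, from 257 to 473 CPM, lie above all BP values, and in PRKAA1, PRKAA2, PRKAG1 and STRADA the third BP+Huaier library lies apart from the first and second.

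STK11 (ENSG00000118046.16; GRCh38 chromosome 19, 1177558 to 1228431, plus strand) encodes LKB1, a main upstream kinase of AMPK and a tumour suppressor. Its level was 200.4, 180.4 and 207 CPM in BP 1, 2 and 3 and 473, 374 and 257 CPM in BP+Huaier 1, 2 and 3. All 3 BP+Huaier libraries were above the highest BP library, and the third was nearest to it. The means were 196 ± 13.7 and 368 ± 108 CPM (SD, n = 3). That is a rise of 1.88-fold, or 0.91 ± 0.21 in log2 (SE; edgeR adjusted p = 0.014). STK11 no longer passed when BP 1, BP 2, BP 3 or BP+Huaier 2 was left out (edgeR adjusted p = 0.0578, 0.0761, 0.0545 and 0.0551). Without BP+Huaier 3 the log2 fold change was 1.12 (edgeR adjusted p = 1.26e-06).

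The promoter of STK11 is shown because STK11 passed the test, and that of CAB39 because its protein sits in the same complex and its transcript did not pass. The sequences are from RefSeq on GRCh38.p14 and cover the 250 bases before the annotated start, 5′ to 3′, with the letters CCAAT in capitals. The STK11 window, chr19:1205528-1205777 on the plus strand, lies within the span of the deposited gene but in 0 bases of its exons. The CAB39 window, chr2:230712592-230712841 on the plus strand and the first of 2 for that gene, ends just before the deposited gene begins.
STK11: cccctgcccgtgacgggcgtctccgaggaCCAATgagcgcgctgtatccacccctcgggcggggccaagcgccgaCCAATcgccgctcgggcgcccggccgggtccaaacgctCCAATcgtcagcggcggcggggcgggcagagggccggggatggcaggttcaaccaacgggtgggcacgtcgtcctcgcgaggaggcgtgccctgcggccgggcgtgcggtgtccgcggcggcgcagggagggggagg
CAB39: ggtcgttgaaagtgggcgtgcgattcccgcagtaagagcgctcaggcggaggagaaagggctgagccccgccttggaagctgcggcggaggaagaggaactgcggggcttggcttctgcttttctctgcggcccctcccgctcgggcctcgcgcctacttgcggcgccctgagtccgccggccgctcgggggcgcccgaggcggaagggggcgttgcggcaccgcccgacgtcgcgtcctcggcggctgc
The STK11 window held 3 CCAAT boxes (CCAAT, both strands searched), beginning 221, 175 and 137 bases before the start, and 2.93% of 35116 RefSeq windows of this length held 3 or more. It also held 2 GC boxes (GGGCGG, both strands), where 24.3% of windows held 2 or more, and 2 half-sites of the cAMP response element (TGACG, both strands), where 4.76% did. None of these matches overlapped another kind of motif searched. The CAB39 window held 0 CCAAT boxes, 1 GC box and 0 half-sites, and the E-box CACGTG was in neither. These motifs were picked with the STK11 result known, and a match describes letters only. RefSeq windows matched 9 of the 10 members, all but STRADA. Members that were not called held some of these motifs too. PRKAG1 had 4 GC boxes and 2 half-sites, CAMKK2 had 1 CCAAT box and 8 GC boxes, and PRKAA1 had 8 GC boxes. The PRKAB1 window held 0 of each motif.

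STK11 shared 145 exon bases, 1.65% of its exons, with CBARP on the opposite strand. CBARP had 541 to 603 counts with BP and 1341 to 1528 with BP+Huaier, against 3391 to 6767 for STK11. Whether reads were counted by strand is not given, and the part of CBARP reads in the STK11 count was not tested.

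CAB39 (ENSG00000135932.11; chromosome 2, 230712842 to 230821075) encodes MO25, which holds LKB1 and STRADA in their active form. It was at 66.6, 70.2 and 64.8 CPM with BP and 58.8, 63.3 and 69.6 CPM with BP+Huaier, so the groups overlapped. The groups differed by -0.07 ± 0.13 in log2 (SE; edgeR adjusted p = 0.688), and its sign turned when the GC and length trend was removed.

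STRADA (ENSG00000266173.7; chromosome 17, 63682336 to 63741986) encodes the pseudokinase that binds and activates LKB1. It was at 7.69, 8.35 and 6.20 CPM with BP and at 3.63, 5.02 and 12.3 CPM with BP+Huaier. The first and second BP+Huaier libraries were below every BP library and the third above all of them. Between groups the log2 fold change was -0.07 ± 0.40 (SE; edgeR adjusted p = 0.901), and without BP+Huaier 3 it was -0.77 (edgeR adjusted p = 0.00648). Most of the STRADA transcript is also annotated to another gene. Of the 2255 bases of its principal transcript in GENCODE 29, 87.4% were also exons of ENSG00000125695 on the same strand, which had 0 counts in all 6 libraries beside 52 to 213 for STRADA. The sources used here do not say how reads on shared bases were assigned, so the level of STRADA is uncertain. Reads on those bases may be missing from its count, which was not tested.

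CAMKK2 (ENSG00000110931.19; chromosome 12, 121237675 to 121298308) phosphorylates AMPK when calcium rises. It was at 70.8, 67.0 and 70.2 CPM with BP and 75.7, 64.7 and 65.8 CPM with BP+Huaier, with the BP values inside the BP+Huaier range. The means were 69.3 ± 2.03 and 68.7 ± 6.03 CPM (SD, n = 3), and their log2 difference in the fit was -0.01 ± 0.13 (SE; edgeR adjusted p = 0.949). Over 16 alternatives it ran from -0.28 with scaling by library size alone to 0.04.

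Both alpha subunits lay below the whole BP range in the first and second BP+Huaier libraries, and within it in the third. PRKAA1 (ENSG00000132356.11; chromosome 5, 40759379 to 40798374), the widely expressed catalytic subunit, was at 64.3, 70.8 and 59.9 CPM with BP and 36.3, 43.7 and 62.6 CPM with BP+Huaier. PRKAA2 (ENSG00000162409.11; chromosome 1, 56645314 to 56715335), the alpha subunit best known from muscle, was at 4.28, 4.04 and 3.78 CPM and at 2.24, 2.14 and 4.21 CPM. The groups overlapped for both genes, each through BP+Huaier 3. The log2 fold change of PRKAA1 was -0.45 ± 0.20 (SE; edgeR adjusted p = 0.119) and that of PRKAA2 -0.48 ± 0.29 (edgeR adjusted p = 0.234), so neither passed. Without BP+Huaier 3 both passed, PRKAA1 at -0.69 (edgeR adjusted p = 0.000245) and PRKAA2 at -0.87 (edgeR adjusted p = 0.00604).

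The beta subunits join alpha to gamma and carry a glycogen-binding module. PRKAB1 (ENSG00000111725.11; chromosome 12, 119667864 to 119681624) was at 17.5, 17.7 and 21.3 CPM with BP and at 30.6, 22.4 and 21.8 CPM with BP+Huaier. Its groups did not overlap, though the lowest BP+Huaier library lay just above the highest BP library. The log2 fold change was 0.41 ± 0.18 (SE) and did not pass (edgeR adjusted p = 0.114). Without BP+Huaier 3 it was 0.51 and passed (edgeR adjusted p = 0.011). PRKAB2 (ENSG00000131791.8; chromosome 1, 147155106 to 147172550) was at 26.7, 25.2 and 22.2 CPM and at 22.1, 24.1 and 33.4 CPM, with both the highest and the lowest value among the BP+Huaier libraries. Its log2 fold change was 0.11 ± 0.18 (SE; edgeR adjusted p = 0.682), and the sign turned with scaling by library size alone and without BP+Huaier 3.

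**Figure D2:**
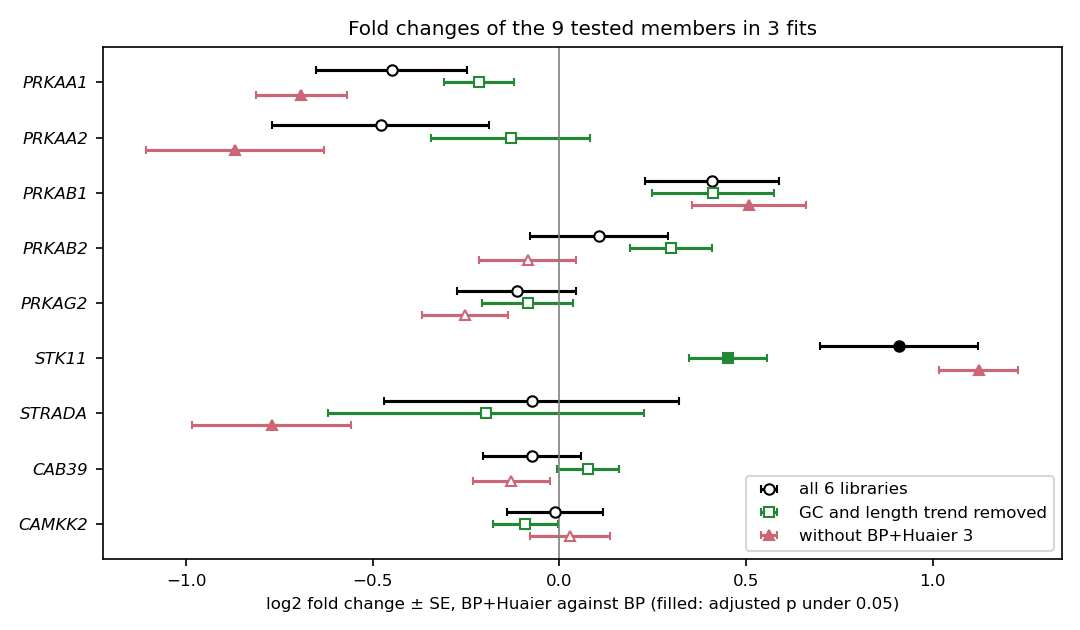
The log2 fold change of BP+Huaier against BP is plotted with its SE for the 9 members tested with all 6 libraries, in that fit, with the GC and length trend taken out, and without BP+Huaier 3. STK11 is filled (adjusted p under 0.05) in all 3 fits, at 0.91, 0.45 and 1.12, and PRKAA1, PRKAA2, PRKAB1 and STRADA are filled only without BP+Huaier 3.

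The gamma subunits hold the sites that bind AMP, ADP and ATP. PRKAG2 (ENSG00000106617.15; chromosome 7, 151556124 to 151877125) was at 46.6, 51.9 and 44.6 CPM with BP and 38.0, 41.4 and 52.6 CPM with BP+Huaier. The groups overlapped, and BP+Huaier 3 held the highest value of all 6 libraries. Its log2 fold change was -0.11 ± 0.16 (SE; edgeR adjusted p = 0.604).

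PRKAG1 (ENSG00000181929.13; chromosome 12, 49002274 to 49018807), a widely expressed gamma subunit, had few counts. It had 17, 13 and 9 counts with BP and 2, 1 and 10 with BP+Huaier, or 0.93, 0.69, 0.53, 0.14, 0.07 and 0.58 CPM. BP+Huaier 1 and 2 were below the floor of 3 counts, 0.21 and 0.22 CPM, and BP+Huaier 3 was within the BP range. PRKAG1 missed the filter on low counts. With no filter its log2 fold change was -1.31 ± 0.63 (SE; edgeR adjusted p = 0.147). Without BP+Huaier 3 it passed the filter only through its BP counts, with both BP+Huaier libraries that were left below the floor, so no fold change is given and it is not counted among the members that were lower there.

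Every base of the principal PRKAG1 transcript was also annotated to another gene of the deposited table. Of its 1699 bases in GENCODE 29, 100% were exons of other genes, and 94.5% were exons of ENSG00000288710, a gene on the same strand that GENCODE 29 does not hold. ENSG00000288710 itself had 3, 4 and 1 counts with BP and 1, 3 and 0 with BP+Huaier, so both genes had few counts. On shared bases few counts need not mean few transcripts, since reads may be missing from both genes, which was not tested. As for STRADA, the assignment of shared reads is not given, and the PRKAG1 count and every sum or share that contains it are uncertain. PRKAA1, PRKAA2, PRKAB2, CAB39 and CAMKK2 shared 0 bases of their principal transcripts, and PRKAB1, PRKAG2 and STK11 at most 5.71%.

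Levels can be compared between members only per length, here as CPM per kb of annotated exons. This length joins all exons of a gene and can exceed that of a transcript. It was 16.427 kb for PRKAG2 and 10.86 kb for STRADA, whose principal transcripts have 3305 and 2255 bases. The order of members, and the sums and shares of pairs, depend on this choice, and lengths of principal transcripts were not used. In the BP libraries the level of STK11 was highest at 22.2 ± 1.55 CPM per kb (SD, n = 3), followed by CAB39 at 12.5 ± 0.51, PRKAA1 at 9.90 ± 0.83 and CAMKK2 at 9.66 ± 0.28. The next levels were PRKAB2 at 4.52 ± 0.42, PRKAB1 at 3.11 ± 0.35 and PRKAG2 at 2.90 ± 0.23 CPM per kb. STRADA at 0.68 ± 0.10, PRKAA2 at 0.43 ± 0.03 and PRKAG1 at 0.17 ± 0.05 CPM per kb came last. The ranks of STRADA and PRKAG1 also rest on uncertain counts, since most or all of their principal transcript bases are shared with other genes. PRKAA1 and CAMKK2 overlapped between libraries, as did PRKAB1 and PRKAG2, and the other neighbours did not. In the BP+Huaier libraries STK11 was at 41.8 ± 12.2 CPM per kb, CAB39 at 11.9 ± 1.01, CAMKK2 at 9.58 ± 0.84 and PRKAA1 at 7.24 ± 2.07. There CAMKK2, PRKAA1, PRKAB2 and PRKAB1 each overlapped with the next of these in order, as did STRADA and PRKAA2.

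Within a library the ratio of STK11 to CAB39 per kb was 1.83, 1.56 and 1.94 with BP and 4.90, 3.59 and 2.25 with BP+Huaier. The ratio of STK11 to PRKAA1 per kb, upstream kinase to catalytic subunit, was 2.32, 1.90 and 2.57 with BP and 9.71, 6.38 and 3.06 with BP+Huaier. Both ratios were above all BP values in every BP+Huaier library and lowest there in the third. They compare values of 1 library and carry no test. The transcript GC content is 65.8% for STK11, 41.85% for CAB39 and 35.3% for PRKAA1. These ratios are not corrected for the GC trend described below, and its part in them was not tested.

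PRKAA1 held nearly all of the alpha transcript level in both groups. Its share of the alpha pair per kb was 95.5, 96.1 and 95.8% with BP and 95.9, 96.7 and 95.5% with BP+Huaier. The means of 95.8 ± 0.31% and 96.0 ± 0.60% (SD, n = 3) did not differ beyond that spread (exact permutation test, two-sided, p = 0.7, adjusted p = 0.7 over 3 shares). PRKAB1 made up 37.2, 38.8 and 46.4% of the beta pair with BP and 55.5, 45.6 and 37.1% with BP+Huaier, with both the highest and the lowest share among the BP+Huaier libraries. The means of 40.8 ± 4.92% and 46.1 ± 9.21% did not differ beyond that spread (exact permutation p = 0.7, adjusted 0.7). The share of PRKAG1 in the gamma pair, which rests on the uncertain PRKAG1 count, was 5.60 ± 1.51% and 2.09 ± 1.82% (exact permutation p = 0.1, adjusted 0.3). With 3 libraries against 3 this test cannot go below 0.1. The gamma share also depends on the long annotated length of PRKAG2. In counts with no length scaling it was 1.97, 1.32 and 1.18% with BP and 0.37, 0.18 and 1.08% with BP+Huaier.

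Summed over each pair, alpha was at 10.3, 11.2 and 9.53 CPM per kb with BP and 5.76, 6.88 and 9.99 with BP+Huaier, so that BP+Huaier 3 lay within the BP range (exact permutation p = 0.2, adjusted 0.3 over 3 sums). Beta was at 7.78, 7.53 and 7.59 CPM per kb with BP and 9.12, 8.12 and 9.74 with BP+Huaier, without overlap (exact permutation p = 0.1, adjusted 0.3). With scaling by library size alone the difference in the beta sum turned from 1.36 to -0.09 CPM per kb. Gamma, with the uncertain PRKAG1 count, was at 3.08 ± 0.24 and 2.74 ± 0.53 CPM per kb (SD, n = 3; exact permutation p = 0.4, adjusted 0.4).

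**Figure D3:**
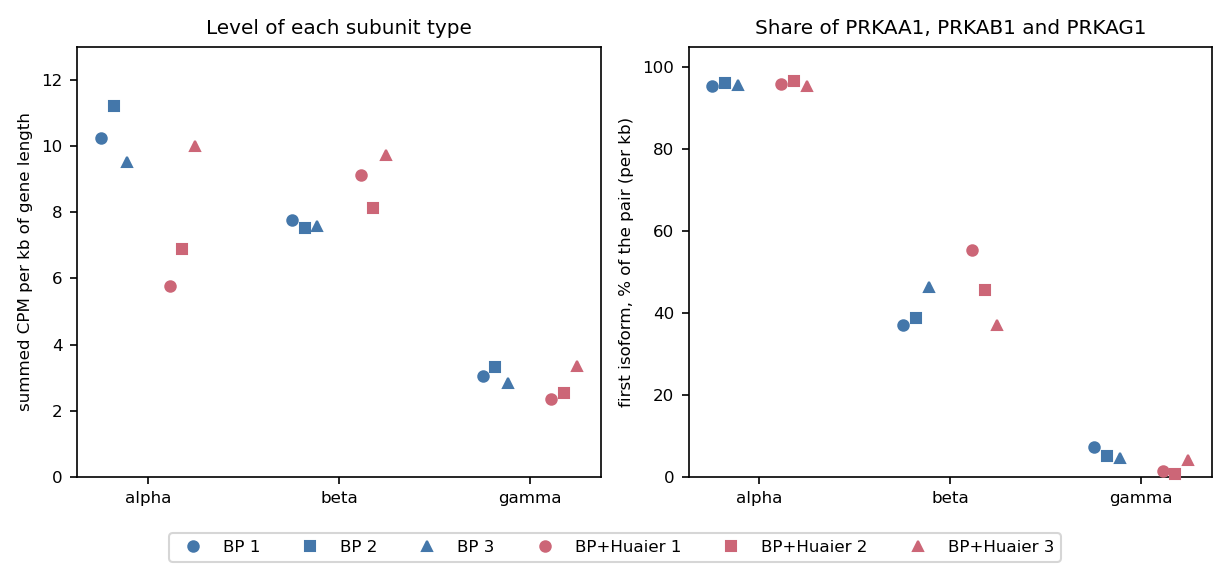
The left panel plots the summed level of the alpha, beta and gamma pairs in CPM per kb of gene length for each of the 6 libraries, and the right panel the share of PRKAA1, PRKAB1 and PRKAG1 in its pair in percent. The alpha share lies between 95.5 and 96.7% in all 6 libraries, the beta shares of the groups overlap, and the gamma values rest on an uncertain PRKAG1 count.

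Over all tested genes the fold change rose with transcript GC content. STK11 has the highest GC content of the tested members, 65.8% for its longest transcript in GENCODE 29, and PRKAA1 and PRKAA2 the lowest, 35.3 and 35.2%. The members between did not follow this order. STRADA at 54.3% and CAMKK2 at 53.1% had log2 fold changes of -0.07 and -0.01, below the 0.41 of PRKAB1 at 48.2%. Among tested genes of more than 60% GC the median log2 fold change was 0.36, with 29.8% called higher, and among genes of at most 40% GC it was -0.30, with 19.8% called lower. Over 14896 genes (genes are no replicates of each other) the log2 ratio of a BP library to the remaining BP libraries had a correlation with GC content of r = 0.03, -0.44 and 0.42 in BP 1, 2 and 3. For the ratio of a BP+Huaier library to the BP mean it was r = 0.39, 0.27 and 0.03 in BP+Huaier 1, 2 and 3.

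With the GC and length trend taken out per library, STK11 was at 231, 227 and 221 CPM with BP and 346, 312 and 272 CPM with BP+Huaier. The groups still did not overlap, and the log2 fold change was 0.45 ± 0.10 (SE; edgeR adjusted p = 0.00859), where 19.4% of all genes were higher. PRKAA1 was then at 59.7, 58.5 and 59.3 CPM and at 47.1, 50.2 and 55.2 CPM, without overlap, and differed by -0.22 ± 0.09 in log2 (SE; edgeR adjusted p = 0.0931). PRKAA2 came to -0.13 ± 0.21 (edgeR adjusted p = 0.647), and PRKAB1 was at 0.41 ± 0.16 (edgeR adjusted p = 0.0719). The groups of PRKAB1 then overlapped, with both BP 3 and BP+Huaier 3 at 21.6 CPM. PRKAB2 was at 21.9 to 24.9 CPM with BP and at 27.2, 27.2 and 30.1 CPM with BP+Huaier, now higher without overlap. Its log2 fold change of 0.30 did not pass (edgeR adjusted p = 0.0542). The share of all genes without overlap was not counted after this removal, and before it that share was 46.8%. The STRADA values still had BP+Huaier 3 highest, at 12.7 CPM.

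**Figure D4:**
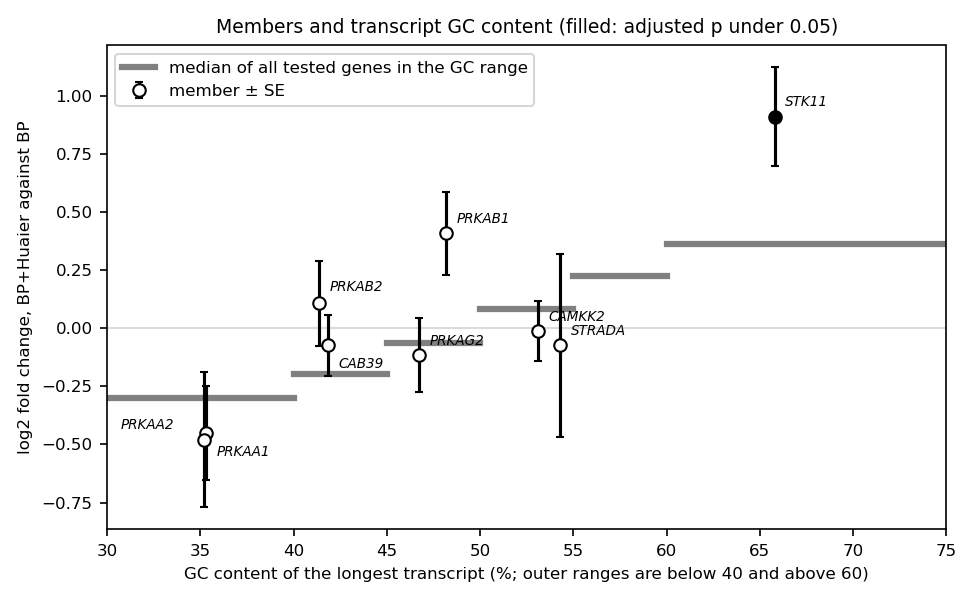
The log2 fold change of each tested member, with its SE, is plotted against the GC content of its longest transcript in percent, and grey bars give the median of all tested genes in 6 ranges of GC content, the outer ones being all genes up to 40% and above 60%. The medians rise from -0.30 to 0.36, PRKAA1 and PRKAA2 lie at the low end, and STK11 at 65.8% GC lies above the bar of its range.

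The genes most like a member were found by the root mean square distance of log2 CPM over the 6 libraries, centred on each gene's mean, among genes of at least 5 CPM. For PRKAA1 these were TRA2A, AAK1 and PSD3, at log2 distances of 0.0243, 0.0274 and 0.0298. For PRKAA2 they were CARNMT1, NR2C2 and ARHGEF12, at 0.0348, 0.0494 and 0.0496. For STK11 they were CDC42EP1, GPRIN1 and TSEN54, at 0.0241, 0.0254 and 0.0273, and for CAMKK2 they were EIF2B4, ZDHHC5 and RCC2, at 0.0166, 0.0291 and 0.0341. TRA2A, the nearest to PRKAA1, was at 46.1, 50.8 and 44.2 CPM with BP and 27.0, 31.1 and 46.1 CPM with BP+Huaier, with the third BP+Huaier library again within the BP range. CDC42EP1, the nearest to STK11, was at 97.9, 91.6 and 102 CPM and at 232, 187 and 131 CPM, with the third again lowest of its group. Among the members, PRKAG2 and CAB39 were the nearest pair at 0.0821, and PRKAA1 and PRKAA2 lay 0.145 apart. These distances rest on 6 libraries that share their depth and GC trends.

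Around the 10 members, 6 lists of 73 genes were examined, of which 67 were tested. Of the 67, 17 rose and 3 fell, together 29.9%, close to the 29.3% of all genes. The 17 are 25.4% and the 3 are 4.48%, beside 14.4% and 15.0% of all genes and 16.6% and 12.8% of protein-coding genes. Under library-size scaling 10 were higher and 10 lower, where 7.00% of all genes were higher and 19.7% lower. With the GC and length trend removed 24 were higher and 6 lower, where 19.4% of all genes were higher and 19.5% lower. The list of further subunits and kinases of the pathway (STRADB, CAB39L, MAP3K7 and CAMKK1 tested) gave 0 calls by edgeR, DESeq2 and limma-voom, and 0 at an unadjusted p under 0.05. It had 1 fall under library-size scaling and 1 without BP+Huaier 3, where 19.7% and 31.0% of all genes fell. PRKAG3, the gamma subunit of skeletal muscle, had 0 counts in all 6 libraries.

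Of 11 tested AMPK-related kinases, which LKB1 phosphorylates as it does AMPK, 4 rose and 1 fell, with a median log2 fold change of 0.27. Together 45.5% of them were called, beside 29.3% of all genes, 14.4% higher and 15.0% lower. SIK1, a salt-inducible kinase, was at 9.34, 12.0 and 8.45 CPM with BP and 33.3, 55.4 and 31.5 CPM with BP+Huaier. Every BP+Huaier library was above every BP library, a rise of 4.03-fold (log2 fold change 2.01 ± 0.25, SE; edgeR adjusted p = 0.00157). NUAK2, a kinase linked to actomyosin and cell adhesion, rose 2.55-fold, from 14.5 ± 1.90 to 37.1 ± 7.44 CPM (SD, n = 3). MARK4, which phosphorylates microtubule-associated proteins, rose 2.16-fold, from 98.8 ± 6.34 to 213 ± 55.5 CPM. MARK2, a kinase of the same family, was the fourth rise, with a log2 fold change of 0.55. SIK3, another salt-inducible kinase, fell from 34.7 ± 1.78 to 23.0 ± 4.35 CPM (edgeR adjusted p = 0.0276), a call lost without any 1 library other than BP+Huaier 3. The MARK2 call was lost without any 1 BP library or BP+Huaier 2, and when only library size set the scale.

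Of 25 tested direct AMPK substrates 5 rose and 2 fell, with a median log2 fold change of 0.22. The share called was 28%, close to the 29.3% of all genes. TXNIP, which limits glucose uptake, was at 960, 1104 and 918 CPM with BP and 2392, 3719 and 2350 CPM with BP+Huaier. All BP+Huaier libraries were above all BP libraries, a rise of 2.84-fold (log2 fold change 1.50 ± 0.21, SE; edgeR adjusted p = 0.00223). HDAC5, a class IIa histone deacetylase, rose 2.29-fold, and PFKFB3, which makes the activator of phosphofructokinase, rose 2.12-fold. The CREB coactivator CRTC2 rose from 63.8 ± 5.58 to 129 ± 10.2 CPM (SD, n = 3).

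RPTOR, the mTORC1 subunit through which AMPK restrains that complex, fell. It was at 78.6, 73.4 and 86.8 CPM with BP and 48.6, 43.2 and 40.7 CPM with BP+Huaier. All 3 BP+Huaier libraries were below the lowest BP library, a log2 difference of -0.85 ± 0.14 (SE; edgeR adjusted p = 0.00357). ACACB, the mitochondrial acetyl-CoA carboxylase, was the other fall (log2 fold change -0.48, edgeR adjusted p = 0.042). That call was lost without any 1 library other than BP+Huaier 3, and with no filter on low counts (edgeR adjusted p = 0.09). The autophagy kinase ULK1 was at 46.2 ± 2.11 and 53.8 ± 6.27 CPM (edgeR adjusted p = 0.254), and the cytosolic carboxylase ACACA at 209 ± 5.07 and 184 ± 11.2 CPM (edgeR adjusted p = 0.305). Substrate falls numbered 8 with scaling by library size alone, where 19.7% of all genes fell. With the GC and length trend removed 9 rose and 5 fell, where 19.4% of all genes rose and 19.5% fell. Without BP+Huaier 3, 8 rose and 6 fell, where 28.8% of all genes rose and 31.0% fell.

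Among 11 regulators of AMPK and its outputs 4 rose and 0 fell by edgeR, DESeq2 and limma-voom. By edgeR 36.4% were thus called, beside 29.3% of all genes, 14.4% higher and 15.0% lower. These tools also gave 0 falls at an unadjusted p under 0.05. DDIT4, a stress-induced inhibitor of mTORC1, was at 136, 138 and 157 CPM with BP and 405, 765 and 263 CPM with BP+Huaier, highest in BP+Huaier 2, and rose 3.32-fold (edgeR adjusted p = 0.00695). SESN2, a sestrin that restrains mTORC1, rose 2.21-fold, from 37.0 ± 0.43 to 81.8 ± 22.9 CPM (SD, n = 3). FLCN, the tumour suppressor folliculin, rose 1.54-fold, with 11.9% of its exon bases shared with another gene on the same strand. UBE2O, a ubiquitin-conjugating enzyme that targets the PRKAA2 protein, rose 1.37-fold. The FLCN call was lost without BP 2 and with scaling by library size alone, and in no other alternative. The UBE2O call was lost without any 1 library other than BP+Huaier 3, under library-size scaling (edgeR adjusted p = 0.207), at 5 CPM (edgeR adjusted p = 0.0538) and with the GC and length trend removed (edgeR adjusted p = 0.0614). The phosphatase genes PPM1A, PPM1E, PPP2CA and PPP2R1A did not pass.

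In the list of calmodulin and its kinases 2 of 7 rose and 0 fell by edgeR, and DESeq2 gave 3 and 0. The edgeR calls were 28.6% of this list, beside 29.3% of all genes, 14.4% higher and 15.0% lower. CALM3, a calmodulin gene, rose 1.48-fold, and CAMK2G, a subunit of CaM kinase II, rose 1.38-fold. In the list of adenine nucleotide conversion 2 of 9 rose and 0 fell by edgeR, or 22.2% called, and DESeq2 again gave 3 and 0. AK6, an adenylate kinase of the nucleus, rose 1.51-fold, with 23.7% of its exon bases shared with another gene on the same strand, and AMPD2, an AMP deaminase, rose 1.44-fold. Limma-voom gave 2 rises and 0 falls in each of these lists, and at an unadjusted p under 0.05 edgeR gave 4 and 0 in each. None of these 4 calls held without BP 1, BP 3 or BP+Huaier 2, or with scaling by library size alone. The CALM3 call was also lost at 5 CPM, and the AMPD2 call with the GC and length trend removed. Without BP+Huaier 3 the lists had 4 rises and 0 falls, and 6 rises and 1 fall, where 28.8% of all genes were higher and 31.0% lower.

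**Figure D5:**
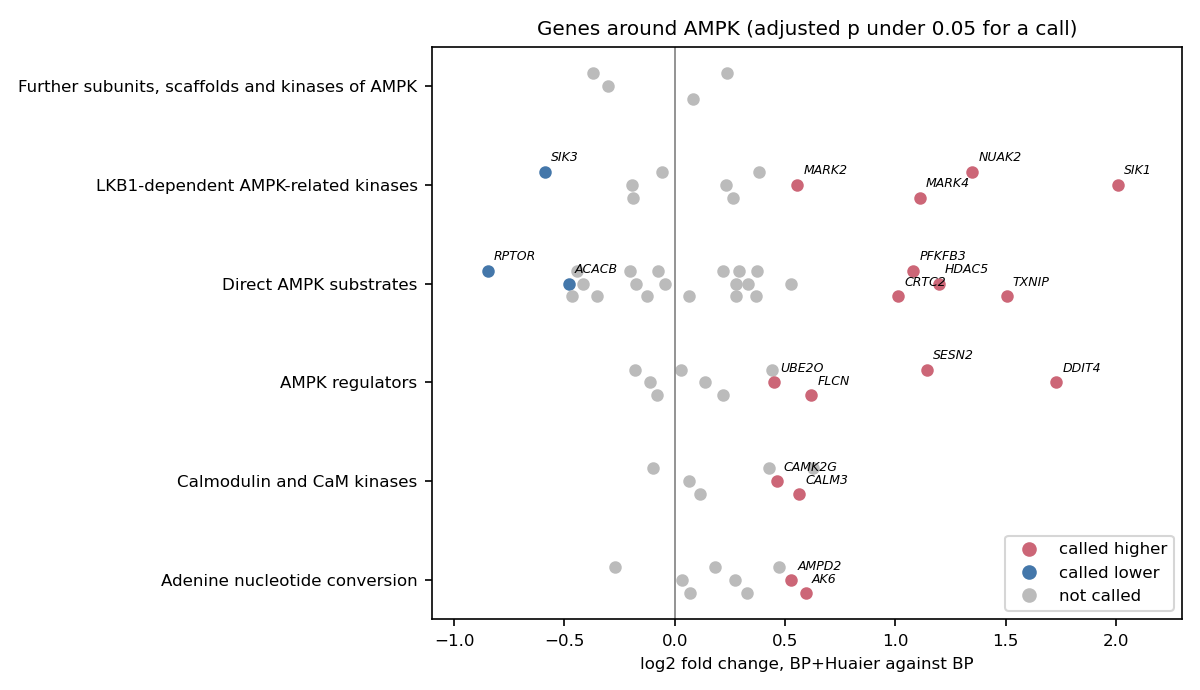
Each point is a tested gene of 6 lists (1 of the 67 is not drawn), placed by its log2 fold change of BP+Huaier against BP, with genes past an adjusted p of 0.05 coloured and named. Rises reach 2.01 for SIK1, and the 3 falls are RPTOR, SIK3 and ACACB.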

How the data were processed

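The authors deposited whole-number counts per gene for 6 libraries, not normalized, as their values show. The programs fastp 0.20.0, featureCounts 1.6.1 and HISAT2 2.1.0 and the build GRCh38 are named, with no order, per the submitters' processing notes. For the counting, the sources used here state neither an annotation release nor the handling of strand, multi-mapped reads or overlapping genes. Symbols were matched by gene ID (99.77% matched). Of 60648 genes, 44 second copies of pseudoautosomal genes with 0 counts were left out, as were 3 broken lines of the table. In R 4.3.3, edgeR 4.0.16 filtered genes with filterByExpr (15022 left), scaled by TMM and ran its quasi-likelihood test (robust) on a design holding the group alone. Alternatives used other scaling, filters, DESeq2 1.42.0, limma 3.58.1 (also with weights by group), a replicate block, removal of a GC and length trend (splines with 4 degrees of freedom) and each library left out. Shares and sums were compared by exact permutation over libraries. Named genes were all members, of each list up to 4 called genes of at least 1 CPM by size of change, and the 3 nearest genes for PRKAA1, PRKAA2, STK11 and CAMKK2. MARK2, CRTC2, RPTOR, ACACB, ULK1, ACACA, the phosphatases and the genes that share exons with members were named after their values were seen. The values of 1 called substrate gene are not reported here, though list counts include it. The members and lists were chosen with earlier results of these data known. Libraries of 1 group differed by 3.74 to 74.1 times the sampling variance, so each was counted. Floors cover counting error only.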

Additional observations from a re-analysis of the deposited data

How the results depend on the processing

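STK11 kept its direction in all 16 alternatives (log2 fold change 0.45 to 1.12) and its call in all but the 4 named in the text, and other members were called only without BP+Huaier 3. Leaving out 1 library gave 810 to 4452 higher and 909 to 4793 lower genes over all genes, 0 to 2 higher and 0 to 4 lower members (the highest counting PRKAG1, which passed the filter there only through BP), and 11 to 28 higher and 1 to 11 lower genes of the related lists. Of the 20 called genes of those lists, 11 kept their call in every alternative. Scaling by library size alone moved the median of all genes from -0.02 to -0.28 and the share of higher calls from 49.0% to 26.2%. It gave 1051 higher genes (7.00% of all genes, with 19.7% lower), and 10 higher and 10 lower in the related lists. Lower genes of the related lists numbered 5 with limma-voom weights by group, where 15.4% of all genes were lower. At 5 CPM they numbered 7, where 1373 of all genes (12.9%) were lower. With the GC and length trend removed they numbered 6, with or without the replicate block, where 18.1% and 19.5% of all genes were lower. Signs turned for PRKAB2 (-0.13 by library size alone, and -0.086 to 0.23 without 1 library, negative without BP+Huaier 3), CAB39 (0.076 with the GC and length trend removed and 0.076 with the block as well) and STRADA (-0.77 to 0.24 without 1 library, positive without BP 2, BP+Huaier 1 or BP+Huaier 2). CAMKK2 came to 0.018 with DESeq2 size factors, 0.018 with DESeq2 and 0.024 with no filter, and to -0.078 to 0.043 without 1 library. The difference in alpha share was -0.14 to 0.45 percentage points without 1 library, negative without BP+Huaier 2, and that in the beta sum was -0.094 CPM per kb by library size alone. The cause was not tested. Same-numbered libraries did not deviate together (r = 0.0085, -0.056 and -0.28 over 15022 genes), and no library correlated best with its own number. With 3 libraries per group this cannot exclude that a number marks a shared culture or day. The replicate block gave 1357 higher genes over all genes and kept STK11 (edgeR adjusted p = 0.0282), while MARK2, ACACB, UBE2O, CALM3, CAMK2G and AMPD2 did not pass with it (for MARK2 edgeR adjusted p = 0.0645). Few counts limit PRKAG1 and PRKAA2, with 1 to 17 and 29 to 78 per library. For PRKAG1 the assignment of reads on shared exons is not given either, and the cause of its low count was not tested.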
